A study of Rattus norvegicus with 48 samples.

Results

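Antigen processing and presentation genes are the machinery that cuts proteins into peptides, carries the peptides to MHC molecules and shows them at the cell surface to T cells. The set here holds 10 genes: B2m, Tap1, Tap2, Tapbp, Psmb8, Psmb9, Psmb10, Nlrc5, Cd74 and Ciita. They were listed by symbol, with earlier results of these data known. They are 10 of the 32883 gene rows counted in each tissue. All 10 were found in both count tables, and 9 passed the filter on low counts in each tissue. Tap2, a subunit of the peptide transporter, was the exception in both.

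The RNA came from the eyes of 24 female Long-Evans rats, a pigmented outbred strain. The groups were aged rats (9 to 10 months) after ovariectomy (OVX, surgical removal of the ovaries), aged rats after a sham operation, young rats (3 to 4 months) after OVX and young rats after a sham operation, with 6 animals in each. Every animal gave 1 retina library and 1 posterior eye library, so that 48 libraries were counted. The strain, the sex and the experience of surgery were shared by all groups, and the interval between surgery and dissection is not given in the sources used here. The study asked how loss of the ovaries and age affect RNA in the back of the eye.

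Class I MHC molecules present peptides from inside the cell. Interferon swaps the catalytic subunits of the proteasome for the immunoproteasome subunits Psmb8, Psmb9 and Psmb10, Tap1 and Tap2 pump the resulting peptides into the endoplasmic reticulum, Tapbp (tapasin) holds the class I molecule beside the pump, and B2m (beta-2 microglobulin) is the light chain of every classical class I molecule. Nlrc5 is the transactivator of these class I genes. Class II molecules present peptides taken up from outside, mainly on dendritic cells, macrophages and B cells. Cd74, the invariant chain, escorts new class II molecules, and Ciita is the transactivator of class II genes and of Cd74. The healthy retina is known for very low MHC expression, whereas the uvea and sclera hold resident leukocytes.

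The stretches just before the transcription starts are shown because the class I genes are textbook interferon targets and because their levels varied together across animals in the posterior eye, as described below. The promoters are RefSeq's, with the 250 bases that precede each start in the 5′ to 3′ direction of the gene. Capitals mark, on either strand, AANNGAAA, the core bound by interferon regulatory factors, and the NF-kappa B consensus. The sequences of B2m, Tap1 and Tapbp hold a capitalised match, and that of Psmb9 is set beside Tap1 because the 2 genes are divergent neighbours whose windows overlap.
B2m (GRCr8 chr3:129549080-129549329, plus strand): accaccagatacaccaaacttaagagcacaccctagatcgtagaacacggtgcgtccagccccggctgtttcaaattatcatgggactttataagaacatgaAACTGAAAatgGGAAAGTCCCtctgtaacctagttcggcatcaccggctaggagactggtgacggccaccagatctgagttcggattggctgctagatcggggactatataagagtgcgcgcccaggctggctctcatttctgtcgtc
Tap1 (GRCr8 chr20:4668544-4668793, minus strand): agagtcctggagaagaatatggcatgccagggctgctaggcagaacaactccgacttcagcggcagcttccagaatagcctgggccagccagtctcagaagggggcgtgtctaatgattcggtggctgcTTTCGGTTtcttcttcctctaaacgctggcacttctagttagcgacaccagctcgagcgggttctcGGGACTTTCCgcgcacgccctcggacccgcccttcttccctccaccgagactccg
Psmb9 (GRCr8 chr20:4668750-4668999, plus strand): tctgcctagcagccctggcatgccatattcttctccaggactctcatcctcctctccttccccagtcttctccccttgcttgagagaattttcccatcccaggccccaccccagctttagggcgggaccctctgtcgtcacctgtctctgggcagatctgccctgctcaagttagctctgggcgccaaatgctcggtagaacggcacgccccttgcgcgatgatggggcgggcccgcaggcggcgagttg
Tapbp (GRCr8 chr20:4967878-4968127, minus strand): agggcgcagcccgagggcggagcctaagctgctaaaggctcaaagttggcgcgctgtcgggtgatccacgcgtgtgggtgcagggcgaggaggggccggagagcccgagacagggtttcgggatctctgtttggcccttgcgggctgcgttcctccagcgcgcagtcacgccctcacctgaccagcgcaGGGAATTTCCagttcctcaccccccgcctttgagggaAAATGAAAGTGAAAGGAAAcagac
A promoter was listed for 8 of the 10 members, all but Nlrc5 and Ciita. AANNGAAA was found in 6 of these 8 (B2m, Cd74, Psmb10, Tap1, Tap2 and Tapbp), against 23.3% of the 33469 windows of the same length in the table. In B2m it began 148 bases before the start and in Tap1 121 bases before it, and in Tapbp 3 overlapping matches began 24, 18 and 13 bases before it. The NF-kappa B consensus was found in 4 of 8 members (B2m, Cd74, Tap1 and Tapbp), against 6.33% of all windows. The CCAAT box, bound by the NF-Y factor, was found in 3 of 8 members (B2m, Cd74 and Psmb8), against 34% of all windows, and TTCNNNGAA, the gamma-activated sequence bound by STAT factors, was found in Psmb8, against 7.67%. TGACGTCA, the cyclic AMP response element, was in 0 of 8 members and in 1.59% of all windows. The motifs were chosen with the sequences in view, and these are matches of letters, not measurements of binding.

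The posterior eye libraries held 11470945 to 22971367 counts and the retina libraries 12916146 to 30737547. The labels were checked with defining genes of each tissue: the collagen gene Col1a1 averaged 1868 counts scaled to library size (CPM, TMM-scaled) in the posterior eye and 1.32 CPM in the retina, and the pigment epithelium gene Rpe65 averaged 307 CPM in the posterior eye and 20.5 CPM in the retina. The posterior eye samples held rod RNA in very unequal amounts. The mean level of 7 rod genes was anywhere from 1.04 to 9.56 on the log2 CPM scale there, against 10.9 to 11.2 in the retina. In the posterior eye that of 5 sebaceous and meibomian gland genes spanned 0.59 to 8.20 and that of 4 blood genes 4.36 to 7.86. In bulk tissue, fewer cells of a type and less RNA per cell cannot be told apart.

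The first comparison set the 24 posterior eye libraries against the 24 retina libraries of the same rats, with CPM scaled over all 48. Of the 9 members tested, 8 were higher in the posterior eye and 1, Ciita, was lower (edgeR quasi-likelihood test, adjusted p under 0.05). Most of the transcriptome differed between these tissues: 93% of the 17153 genes tested were called, 47.8% higher and 45.2% lower in the posterior eye, so a call alone says little about the members. The median log2 fold change of the members was 3.14, beside 0.05 over all genes and a median absolute change of 1.02.

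Cd74 had the largest difference among the members. It averaged 409 ± 123 CPM in the posterior eye and 4.64 ± 1.69 CPM in the retina (SD, n = 24 each), a fold of 89.2 (log2 fold change 6.48 ± 0.18 SE; edgeR adjusted p = 2.9e-32). The 4 classical class II chains that it escorts differed as widely, with log2 fold changes of 7.11 for RT1-Da, 7.45 for RT1-Ba, 7.41 for RT1-Bb and 5.99 for RT1-Db1. Their retina levels were at most 1.39 CPM in any library. Ptprc, which encodes the leukocyte surface protein CD45, was 10.1 ± 2.30 CPM in the posterior eye and 0.772 ± 0.198 CPM in the retina (SD, n = 24 each), a log2 fold change of 3.70. Class II genes and a leukocyte marker were therefore high in the same tissue, and the part of leukocyte number in the difference was not tested.

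The class I members followed with smaller differences. B2m averaged 506 ± 107 CPM in the posterior eye and 46.8 ± 7.00 CPM in the retina, a fold of 10.8. The immunoproteasome subunits Psmb8 and Psmb9 were 14.3-fold and 11.5-fold higher in the posterior eye. Psmb10, the remaining subunit, was 3.05-fold higher, with 68.9 ± 10.6 CPM in the posterior eye and 22.5 ± 2.04 CPM in the retina. Tap1, the peptide pump, was 8.84-fold higher, and Nlrc5 was 5.11-fold higher at 7.07 ± 2.26 CPM in the posterior eye and 1.40 ± 0.497 CPM in the retina. Tapbp, which was also abundant in the retina, had the smallest difference, 124 ± 21.6 CPM in the posterior eye and 66.7 ± 7.37 CPM in the retina (SD, n = 24 each), a fold of 1.86. The ranges of the 2 tissues did not overlap for any of the 9 members tested, Cd74 and Ciita included, and neither did those of 52.1% of the 17153 genes tested.

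Ciita went the other way. It averaged 8.72 ± 4.90 CPM in the posterior eye and 49.9 ± 3.93 CPM in the retina (SD, n = 24 each), a log2 fold change of -2.52 ± 0.17 (SE; edgeR adjusted p = 1.2e-17). The class II transactivator thus had its higher level in the tissue where Cd74 and the class II chains were low. The retina values were tight, 43.7 to 57.8 CPM, and the posterior eye values spanned 2.37 to 21.0 CPM. Its neighbour in the RefSeq gene order, Dexi, with no gene between them, had a log2 fold change of -0.23, and Clec16a, the next gene of that locus, one of -0.998. Whether the counted reads come from the transcript that encodes the protein was not tested, since counts per gene do not separate isoforms and the library kit does not mark strand.

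Tap2 stayed under the filter. Its counts were 0 to 10 per posterior eye library (97 in all 24) and 0 to 7 per retina library (47 in all 24), and the main fits did not test it. Alternative fits without the filter did, and they called it only between the posterior eye and the retina, where all 10 members were called. Tap1, which pairs with it in the pump, had 360 to 828 counts per posterior eye library. Whether the gene model of Tap2 used for counting is complete was not tested, so its low counts are not a measure of low expression.

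The OVX comparisons in the posterior eye were made within each age, on CPM scaled within that tissue. No member passed the test in aged OVX against aged sham eyes (0 of 9; percent called over all genes 0), in young OVX against young sham eyes (0 of 9; percent called 0.0061) or averaged over both ages (0 of 9; percent called 0). Of all 16401 genes, 422 had an unadjusted p under 0.05 in the aged comparison, 1023 in the young one and 938 in the average, and 0 members were among them in any of the 3. DESeq2 and limma-voom also called 0 members in each OVX comparison of both tissues. Values are given below as lowest, median and highest of the 6 libraries of each group.

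B2m, the class I light chain, had 363, 541 and 679.8 CPM in aged OVX, 395.5, 435 and 637 CPM in aged sham, 338, 548 and 618 CPM in young OVX, and 370.3, 424 and 528 CPM in young sham posterior eyes. The medians were higher after OVX at both ages, but the ranges overlapped, and the log2 fold change averaged over the ages was 0.20 ± 0.11 (SE; edgeR adjusted p = 0.914). Its 95% interval was -0.03 to 0.44. Of all members, B2m had the smallest p in that average.

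Of the immunoproteasome subunits, Psmb9 had 29.4, 46.45 and 57.5 CPM in aged OVX, 26.5, 37.1 and 61.7 CPM in aged sham, 23.1, 40.8 and 49.4 CPM in young OVX, and 27.4, 38.4 and 41.4 CPM in young sham posterior eyes. Psmb8 had 24.5, 35.3 and 42.0 CPM in aged OVX, 23.4, 26 and 47.5 CPM in aged sham, 20.9, 28.2 and 44.01 CPM in young OVX, and 25.8, 29.1 and 31.03 CPM in young sham. Psmb10 had 49.4, 73.4 and 84.7 CPM in aged OVX, 55.3, 62.6 and 78.6 CPM in aged sham, 49.97, 59.1 and 73.8 CPM in young OVX, and 61.5, 64.7 and 67.3 CPM in young sham. All 3 had overlapping groups, and young sham eyes varied least in each. The log2 fold changes after OVX in aged rats were 0.24 ± 0.20 for Psmb9, 0.16 ± 0.19 for Psmb8 and 0.12 ± 0.12 for Psmb10 (SE), and none passed the test.

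Tap1 had 25.4, 32.5 and 48.3 CPM in aged OVX, 18.9, 32.2 and 48.2 CPM in aged sham, 20.0, 30.5 and 43.6 CPM in young OVX, and 29.9, 33.0 and 37.1 CPM in young sham posterior eyes. Tapbp, which tethers class I molecules to that pump, had 91.2, 115 and 148 CPM in aged OVX, 97.6, 116 and 171 CPM in aged sham, 97.4, 109 and 136 CPM in young OVX, and 104, 124 and 132 CPM in young sham. Nlrc5, the class I transactivator, had 5.59, 6.39 and 9.87 CPM in aged OVX, 3.77, 5.40 and 12.4 CPM in aged sham, 3.91, 6.40 and 9.95 CPM in young OVX, and 5.05, 6.79 and 8.52 CPM in young sham. These 3 genes had medians within a narrow band in all groups, and their ranges overlapped in each comparison. Cd74, the class II chaperone, had 197.5, 381 and 620.3 CPM in aged OVX, 289, 343.5 and 608.5 CPM in aged sham, 277, 404 and 567 CPM in young OVX, and 304, 357 and 519 CPM in young sham. Its log2 fold changes after OVX were -0.08 ± 0.25 in aged and 0.13 ± 0.25 in young rats (SE). Ciita is described with the rod genes further on.

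**Figure D1:**
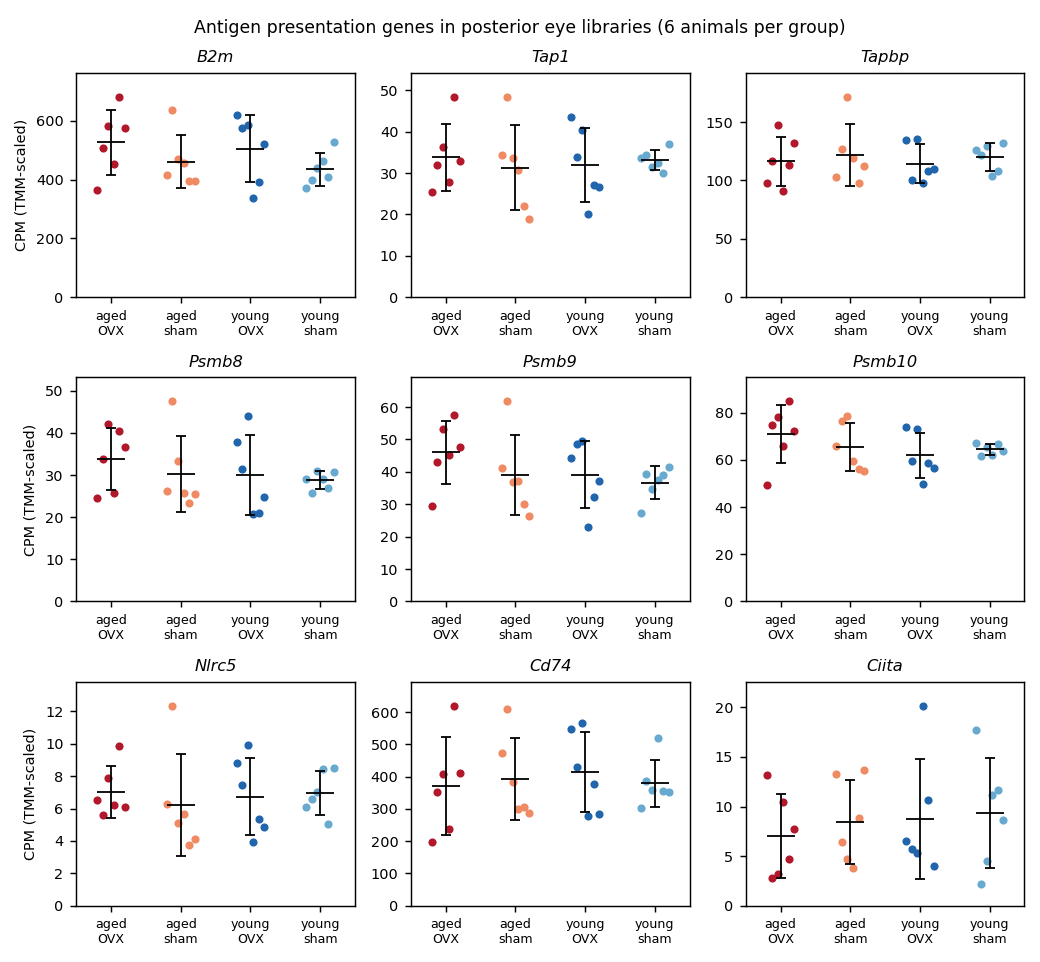
Posterior eye levels of the 9 tested members in CPM (TMM-scaled, axes from 0), 1 point per animal, by group; the bar and whiskers are the mean and SD of 6 animals. The OVX and sham points overlap in every panel, and Ciita has the widest spread relative to its mean.

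In the retina the OVX comparisons gave 0 of 9 members in aged OVX against aged sham (percent called over all genes 0.00646), 0 of 9 in young OVX against young sham (percent called 0.0194) and 0 of 9 averaged over both ages (percent called 0.0517). At an unadjusted p under 0.05 there was 1 member in young rats, B2m, and 0 in aged rats and in the average. Of the 15481 genes tested, 1001 did so in aged rats, 1807 in young rats and 1678 in the average.

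B2m had 44.3, 51.99 and 66.1 CPM in aged OVX, 46.4, 51.7 and 62.5 CPM in aged sham, 43.7, 47.8 and 57.5 CPM in young OVX, and 35.9, 41.2 and 53.4 CPM in young sham retinas. Young sham retinas were the lowest group, with 4 overlapping ranges. The log2 fold change was 0.21 ± 0.10 in young rats (SE; edgeR adjusted p = 0.404) and 0.01 ± 0.10 in aged rats, and the difference between these, -0.20 ± 0.14, did not pass the test (edgeR adjusted p = 0.837).

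Cd74 had 1.235, 4.43 and 6.41 CPM in aged OVX, 3.45, 4.38 and 6.90 CPM in aged sham, 5.56, 6.10 and 7.60 CPM in young OVX, and 1.83, 3.88 and 8.07 CPM in young sham retinas. The young OVX values were the tightest group and all lay inside the young sham range. The log2 fold change in young rats was 0.57 ± 0.29 (SE; edgeR adjusted p = 0.468), with a 95% interval of -0.03 to 1.17. These values rest on 18 to 188 counts per library. Of the class II chains only RT1-Db1 and RT1-Da passed the filter in the retina, and RT1-Db1 had a log2 fold change of 0.77 ± 0.37 in the same comparison (edgeR adjusted p = 0.413).

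Psmb9 had 1.99, 3.96 and 6.60 CPM in aged OVX, 3.17, 4.46 and 5.17 CPM in aged sham, 2.99, 4.00 and 5.38 CPM in young OVX, and 1.62, 3.07 and 4.18 CPM in young sham retinas. Psmb8 had 1.92, 2.87 and 3.88 CPM in aged OVX, 1.89, 2.45 and 3.65 CPM in aged sham, 1.46, 2.02 and 2.87 CPM in young OVX, and 1.10, 1.88 and 3.22 CPM in young sham. Psmb10 had 20.4, 23.3 and 28.8 CPM in aged OVX, 21.7, 23.1 and 26.6 CPM in aged sham, 20.0, 24.0 and 26.3 CPM in young OVX, and 20.0, 23.4 and 25.0 CPM in young sham. Psmb10 was nearly level across the groups, and the OVX intervals of all 3 subunits included 0 at both ages.

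Tap1 had 3.51, 5.01 and 8.85 CPM in aged OVX, 3.58, 4.24 and 5.16 CPM in aged sham, 2.33, 3.33 and 4.76 CPM in young OVX, and 1.82, 3.42 and 4.06 CPM in young sham retinas. Tapbp had 65.4, 73.9 and 84.8 CPM in aged OVX, 67.6, 74.0 and 77.3 CPM in aged sham, 54.0, 62.4 and 79.7 CPM in young OVX, and 62.7, 67.9 and 73.5 CPM in young sham. Nlrc5 had 0.851, 1.87 and 2.74 CPM in aged OVX, 0.697, 1.77 and 2.00 CPM in aged sham, 0.866, 1.11 and 1.79 CPM in young OVX, and 0.481, 1.41 and 1.83 CPM in young sham. All 3 had their higher medians in the aged groups, with overlapping ranges. Tap1 had the smallest p of the members in aged OVX against aged sham retinas, with a log2 fold change of 0.32 ± 0.21 (SE; edgeR adjusted p = 0.838). Ciita, by contrast, was flat, with 48.1, 51.9 and 55.7 CPM in aged OVX, 47.2, 53.4 and 59.01 CPM in aged sham, 46.2, 52.5 and 60.0 CPM in young OVX, and 45.6, 52.1 and 56.9 CPM in young sham retinas, and its OVX fold changes had 95% intervals of -0.16 to 0.11 in aged and -0.12 to 0.14 in young rats.

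**Figure D2:**
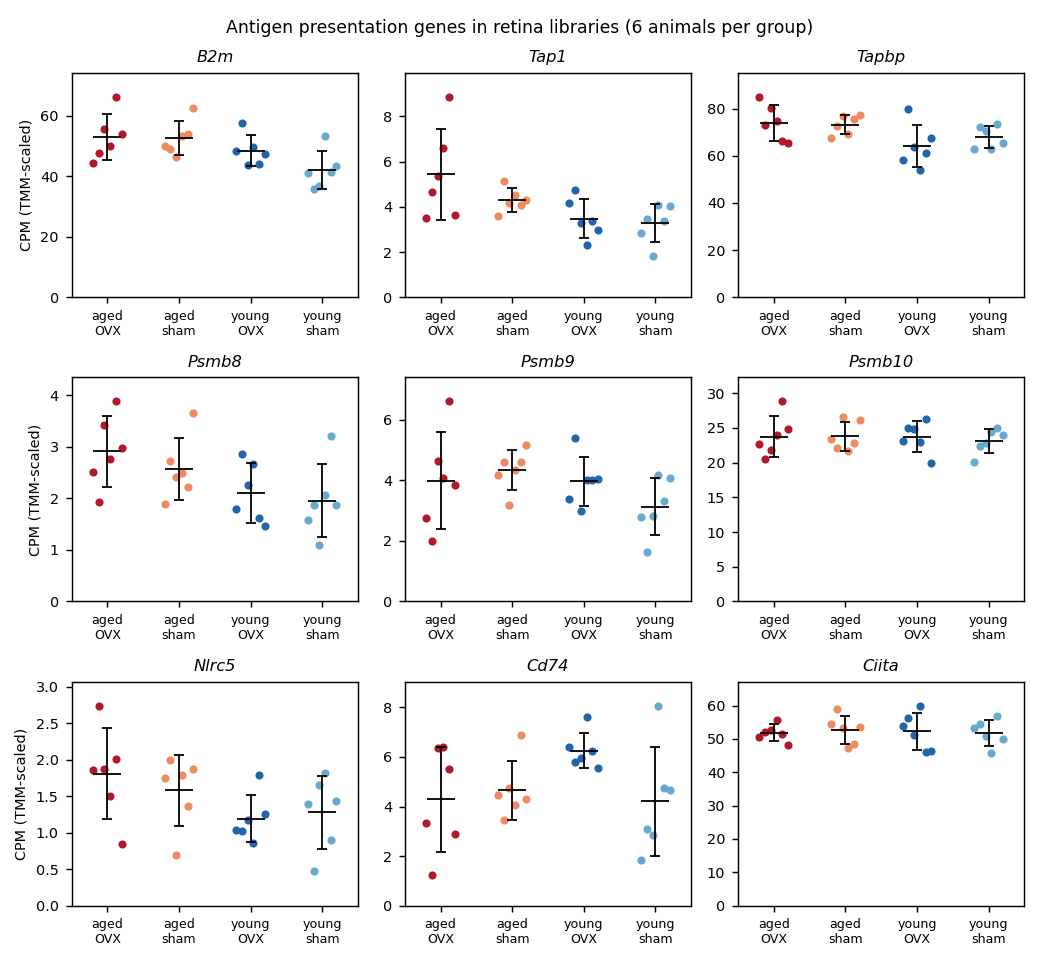
Retina levels of the 9 tested members in CPM (TMM-scaled, axes from 0), 1 point per animal, by group; the bar and whiskers are the mean and SD of 6 animals. Aged retinas lie higher on average for B2m, Tap1, Tapbp, Psmb8 and Nlrc5, and for Psmb9 in sham rats, with overlapping points. Ciita and Psmb10 are level.

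The OVX effect did not differ detectably between the tissues for any member. The contrast of the posterior eye effect with the retina effect called 0 of 9 members (percent called over all genes 0.00583), and at an unadjusted p under 0.05 it held 848 genes and none of the members. The differences ran from -0.18 ± 0.29 for Cd74 to 0.11 ± 0.14 for B2m on the log2 scale (SE). Likewise the interaction of OVX and age called 0 of 9 members in the posterior eye (percent called 0) and 0 of 9 in the retina (percent called 0.0452), with 487 and 962 genes at an unadjusted p under 0.05 and no member among them.

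Ageing was compared within each surgery. In the retina, aged sham against young sham called 0 of 9 members (percent called 0.0388) and aged OVX against young OVX called 0 of 9 (percent called 0.0711). At an unadjusted p under 0.05 there were 2 members in sham rats and 3 in OVX rats, beside 1656 and 1429 genes overall. In sham rats these were B2m, with a log2 fold change of 0.33 ± 0.10 (SE; edgeR adjusted p = 0.207), and Psmb9, with 0.48 ± 0.23 (adjusted p = 0.452). In OVX rats they were Tap1 with 0.62 ± 0.21 (adjusted p = 0.328), Tapbp with 0.21 ± 0.08 (adjusted p = 0.366) and Psmb8 with 0.46 ± 0.22.

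All 7 class I members tested had a positive log2 fold change in aged sham against young sham retinas, with a median of 0.33, beside 49.8% of all genes and an all-gene median of 0.00. In OVX rats 6 of 7 were positive, with a median of 0.21, beside 50.4% of all genes. Some of these genes varied together between animals, as described below, so these counts of sign carry no test. The average of both ageing comparisons, chosen after these values had been seen, also called 0 of 9 members (percent called 0.736), with 5 members and 1997 genes at an unadjusted p under 0.05. Its largest member values were 0.51 ± 0.15 for Tap1 (edgeR adjusted p = 0.106), 0.45 ± 0.20 for Nlrc5 (adjusted p = 0.335), 0.43 ± 0.16 for Psmb8 (adjusted p = 0.205), 0.24 ± 0.16 for Psmb9 (adjusted p = 0.574) and 0.23 ± 0.07 for B2m (adjusted p = 0.116), whereas Cd74 had -0.20 ± 0.21. With DESeq2 in place of edgeR, Tap1 passed in this average (adjusted p = 0.042), and without young sham animal 4 B2m passed it in edgeR (log2 fold change 0.27, adjusted p = 0.047). Outside the members, the class I heavy chain gene RT1-A2 (0.20 ± 0.04, adjusted p = 0.018) and the interferon-induced genes Bst2 (0.62 ± 0.15, adjusted p = 0.040) and Oas1a (1.25 ± 0.30, adjusted p = 0.045) rose in aged retinas. The mean level of 23 tested interferon-induced genes had medians of 1.42 log2 CPM in aged OVX, 1.61 in aged sham, 1.36 in young OVX and 1.01 in young sham retinas, and the leukocyte level had medians of 1.89 in aged OVX, 1.83 in aged sham, 1.87 in young OVX and 1.85 in young sham retinas. Other tissue genes varied more between retinas: the mean level of 7 lens genes had medians of 8.26 log2 CPM in aged OVX, 6.63 in aged sham, 8.6 in young OVX and 8.91 in young sham (5.25 to 9.49 over all 24 libraries). That of 7 pigment epithelium genes had medians of 4.04 in aged OVX, 4.82 in aged sham, 5.18 in young OVX and 4.44 in young sham. In an edgeR fit that included the pigment epithelium genes' level, the averaged ageing change was 0.51 for Tap1 (adjusted p = 0.137) and 0.21 for B2m (adjusted p = 0.172). The part of interferon-induced transcription and of lens RNA in the members' values was not tested.

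In the posterior eye, ageing called 0 of 9 members in sham rats (percent called 0), 0 of 9 in OVX rats (percent called 0) and 0 of 9 in their average (percent called 0.0488). At an unadjusted p under 0.05 there were 0 members in each, beside 481 of all genes in sham rats, 1663 in OVX rats and 1459 in the average. The log2 fold changes in sham rats ran from -0.16 ± 0.26 for Nlrc5 to 0.09 ± 0.20 for Psmb9 (SE). The ageing differences in the 2 tissues were not tested against each other.

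**Figure D3:**
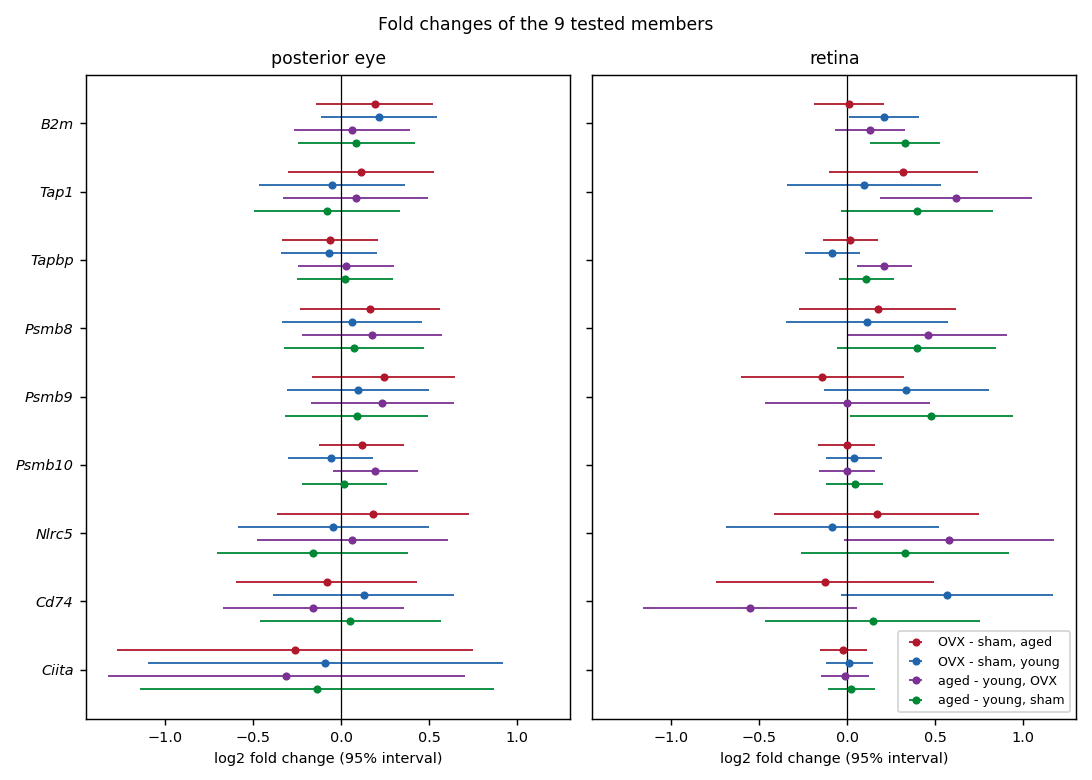
Log2 fold changes of the 9 tested members (points) with 95% intervals (lines) in OVX against sham and aged against young comparisons, in the posterior eye and the retina. Intervals are unadjusted, and none of these values passes the adjusted threshold; those that leave 0 out are B2m, Tap1, Tapbp, Psmb8 and Psmb9 in the retina.

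Animals of the same group differed from each other in a coordinated way in the posterior eye. After the 4 group means were taken out of log2 CPM, 21 of 21 pairs among B2m, Tap1, Psmb8, Psmb9, Psmb10, Nlrc5 and Cd74 had an adjusted permutation p under 0.05 over the 24 animals, with Pearson's r of 0.604 to 0.896. The p-values come from 100000 permutations within groups and were adjusted over the 72 pairs of both tissues. Pairs of genes outside the set were not tested, so the share of all gene pairs that would pass is not known. The highest was B2m with Psmb9 (r = 0.896, Spearman's coefficient = 0.847, permutation p = 1e-05, the smallest they can give, adjusted p = 0.00012). Nlrc5 went with Tap1 at r = 0.881, Spearman's coefficient = 0.842 (permutation p = 1e-05, adjusted p = 0.00012). For each pair, r was also taken without the 2 animals farthest from the median of 1 of its genes. It was then 0.647 to 0.853 over these pairs.

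Tapbp stood apart, with r of 0.359 to 0.691 to those 7 genes, and Ciita was negative to each of the other 8 (r of -0.533 to -0.28). In the retina the same 21 pairs had a median r of 0.451, and 5 of them had an adjusted p under 0.05. Of these, 3 also passed by Spearman's coefficient. Nlrc5 had r of -0.276 to 0.291 to the members other than Ciita in the retina, and 0 of these 7 pairs passed. B2m with Psmb9 was again the highest (r = 0.807, Spearman's coefficient = 0.816, permutation p = 8e-05, adjusted p = 0.00044), and it kept r = 0.745 without the 2 farthest animals. An animal's posterior eye and retina deviated together for no member at an adjusted p under 0.05 over 9 relations, and Tap1 came nearest (r = 0.492, Spearman's coefficient = 0.432, permutation p = 0.0062, adjusted p = 0.055).

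**Figure D4:**
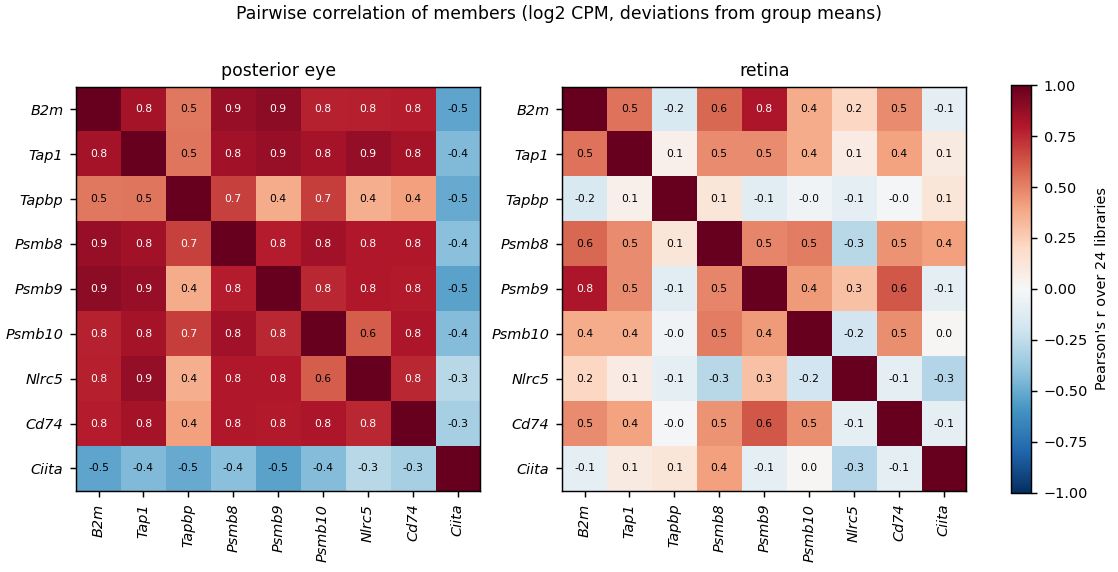
Pearson's r between the 9 tested members over 24 animals, from log2 CPM with the 4 group means taken out, in the posterior eye and the retina (colour and printed value). In the posterior eye the class I genes and Cd74 form a block of high values, Tapbp is weaker and Ciita is negative; the retina values are lower.

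The genes outside the set with the most similar posterior eye pattern were found over the 24 libraries, with group means taken out. For the mean of the 7 tested class I members they were RT1-CE4 (r = 0.920), RT1-A2 (0.919), Stat4 (0.885), Casp1 (0.882) and RT1-CE10 (0.873). For Cd74 they were RT1-Db1 (0.983), RT1-Da (0.981), RT1-Ba (0.975), RT1-Bb (0.963) and Tyrobp (0.859). Class I heavy chains headed the list of the class I members and class II chains headed that of Cd74. RT1 genes are near-identical copies, and how reads were divided among them is uncertain. In the retina the lists were different: Cgnl1, Frk, Ace, Ano1 and Akr7a3 for the class I mean (r of 0.823 to 0.845), and Fbln1, Plekhg3, Fkbp10, Cdh3 and Optc for Cd74 (r of 0.845 to 0.867).

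The members were set beside the levels of 7 marker lists in each tissue, 126 relations in all. In the posterior eye Cd74 followed the leukocyte list (Ptprc, Laptm5, Coro1a, Cd52 and Cd53, of which 4 were tested) with r = 0.821 and Spearman's coefficient = 0.855 (permutation p = 1e-05, adjusted p = 0.00063; r = 0.828 without the 2 farthest animals). Nlrc5 did so with r = 0.764 and Spearman's coefficient = 0.701 (adjusted p = 0.0013), and B2m with r = 0.705 and Spearman's coefficient = 0.575 (adjusted p = 0.0070). The leukocyte level was 3.69 to 4.29 log2 CPM in aged OVX, 3.73 to 4.20 in aged sham, 3.47 to 4.41 in young OVX and 3.75 to 4.36 in young sham posterior eyes. B2m also followed the interferon-induced list (r = 0.717, Spearman's coefficient = 0.698, adjusted p = 0.0068), whereas Cd74 did not pass with it (adjusted p = 0.173). Fibroblast genes went with the same members (r of 0.780 for Cd74 and 0.758 for B2m) and rod genes against them (r of -0.562 for B2m, adjusted p = 0.038). RNA levels of several cell type lists thus moved with these values, and the part of tissue composition in them was not tested. In the retina Tap1 followed the interferon-induced list (r = 0.784, Spearman's coefficient = 0.802, permutation p = 0.00014, adjusted p = 0.0035; r = 0.756 without the 2 farthest).

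Ciita in the posterior eye varied with the level of rod genes. It had 2.79, 6.27 and 13.2 CPM in aged OVX, 3.77, 7.65 and 13.65 CPM in aged sham, 4.02, 6.10 and 20.2 CPM in young OVX, and 2.22, 9.92 and 17.7 CPM in young sham posterior eyes. The spread of 9.09-fold between libraries was the widest of the tested members, and the groups overlapped throughout. Its correlation with the level of 7 rod genes was r = 0.879 and Spearman's coefficient = 0.911 (permutation p = 1e-05, adjusted p = 0.00063), and r was 0.936 without the 2 animals farthest from the median rod level. With the leukocyte list it did not pass (adjusted p = 0.343). The genes most like Ciita, a list added after its values were seen, were Nhlh2, Gpr162, Nim1k, Tmem179 and Pdxp (r of 0.955 to 0.959). None of these genes is on the rod list, and their r was above that of the rod level. No list of other retinal neurons was set beside Ciita. The OVX fold changes of Ciita in this tissue, -0.26 ± 0.49 in aged and -0.09 ± 0.49 in young rats (SE), had the widest intervals of the members.

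**Figure D5:**
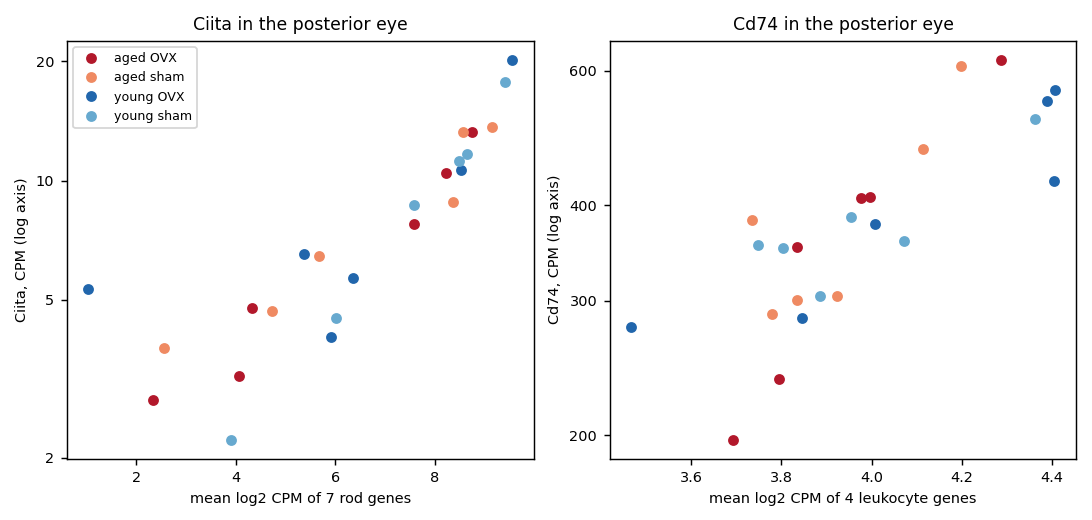
Posterior eye CPM (log axis) of Ciita against the mean log2 CPM of 7 rod genes, and of Cd74 against that of 4 leukocyte genes, 1 point per animal, coloured by group. Ciita spans 2.22 to 20.2 CPM along the rod axis and Cd74 197.5 to 620.3 CPM along the leukocyte axis, with the 4 groups mixed.

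The rest of the pathway was read from 7 lists, with 88 genes in the posterior eye table and 90 in the retina table. No gene of these lists passed the test in any OVX comparison or in the ageing comparisons within a surgery, in either tissue. Among class I heavy chains and loading partners, 18 of 22 had a positive log2 fold change in both the aged and the young posterior eye OVX comparison, with medians of 0.11 and 0.07, beside 51% and 47.2% of all genes. RT1-CE1 had the smallest p there (0.85 ± 0.28 averaged over the ages, adjusted p = 0.700), at 0.481 to 1.08 CPM. In the retina the list had 16 of 22 positive at each age, and RT1-A2 had 0.23 ± 0.06 in aged sham against young sham (adjusted p = 0.155).

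Class II chains and their loading helpers had 3 of 8 positive in aged and 8 of 8 in young posterior eyes after OVX, and no gene of the list had an unadjusted p under 0.05. RT1-DMa, which loads peptides onto class II, had its smallest p in aged sham against young sham eyes (0.69 ± 0.39) and did not pass the test. The constitutive proteasome, whose subunits the immunoproteasome replaces, had 11 of 13 positive in aged and 0 of 13 in young posterior eyes, with medians of 0.05 and -0.08. Psma2 had the smallest p of that list (-0.15 ± 0.08 in young rats, adjusted p = 0.827). In the retina 0 of 13 were positive in aged and 9 of 13 in young rats, with medians of -0.04 and 0.00, and Psmb1 had -0.09 ± 0.05 in young rats (adjusted p = 0.495). Subunits of 1 complex are not independent of each other, and genes of the other lists need not be, so the counts of sign in these lists carry no test.

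Among activators and peptidases, Pomp, the proteasome maturation protein, had 1.23 ± 0.30 in young OVX against young sham retinas (edgeR adjusted p = 0.147), at 1.87 CPM after OVX and 0.806 CPM after sham. Thop1, a peptidase that degrades cytosolic peptides, had -0.40 ± 0.15 averaged over the ages in the posterior eye (adjusted p = 0.767). Of the interferon signalling genes and transcription factors, Irf8, a factor of myeloid cells, had -0.33 ± 0.11 after OVX in the posterior eye (adjusted p = 0.700), and Nfya, a subunit of the CCAAT-binding NF-Y, had 0.17 ± 0.05 in young OVX retinas (adjusted p = 0.213). In class II lysosomal processing, March1, a ligase that removes class II from the surface, had -0.26 ± 0.06 in young OVX retinas (adjusted p = 0.147), and the protease gene Ctsl had 0.36 ± 0.19 in aged OVX posterior eyes (adjusted p above 0.99). March1 was not read in the posterior eye, where such symbols had been turned into dates. Cd40, a costimulatory receptor, had 0.42 ± 0.14 after OVX in the posterior eye averaged over the ages (adjusted p = 0.700) and 0.72 ± 0.25 in young OVX retinas (adjusted p = 0.264). Cd274, which encodes the inhibitory ligand PD-L1, had -0.44 ± 0.15 in young OVX posterior eyes (adjusted p = 0.676). Of the interferon-induced list, 24 of 24 had a positive log2 fold change in aged OVX posterior eyes (median 0.33, beside 51% of all genes) and 13 of 24 in young OVX posterior eyes (median 0.04, beside 47.2%). In retinas after OVX, 20 of 23 were positive in aged rats (median 0.25, beside 49.8% of all genes) and 23 of 23 in young rats (median 0.28, beside 49.7%). Genes of this list need not be independent either, so its counts of sign carry no test. None of the list was called by edgeR in the 4 comparisons, in which 0 to 2 of its genes had an unadjusted p under 0.05. Averaged over the ages, 5 of 24 did so in the posterior eye, beside 5.72% of all genes. In the retina 8 of 23 did so, beside 10.8% of all genes, and the average called none of the list in either tissue.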

How the data were processed

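Per the labels' protocols, total RNA was amplified with a low-input full-length cDNA kit, fragmented, and sequenced as paired reads. The submitters' processing notes name STAR 2.7.3a, HTSeq, DESeq2 and the rat build Rnor_6.0; settings and gene annotation were not given in the sources used here. The deposited values are raw counts per gene, with no normalization by the authors. In the posterior eye table, 25 rows had symbols turned into dates. Genes of those names were read in the retina only and were left out of the fits over both tissues.

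Counts were analysed with edgeR 4.0.16 (R 4.3.3): genes were filtered by group with filterByExpr (minimum count 10), scaled with TMM and tested with the quasi-likelihood test, with 1 mean per group over the 24 libraries of a tissue, or 8 means over all 48 libraries for tissue contrasts. P-values were adjusted by Benjamini-Hochberg over all genes tested, and a gene was called under 0.05. CPM are scaled by TMM, and levels are not compared between genes. edgeR's common biological coefficient of variation came to 33.4% for posterior eye libraries, against 12% for retina libraries. Data were simulated from each gene's mean over all 24 libraries of a tissue, with changes put into young OVX for randomly drawn genes. In the posterior eye test of young OVX against young sham (16249 genes), 68% of log2 changes of 1 and 90.9% of those of 2 were recovered, with 9 false calls. For the retina (15399 genes) the shares were 82.8% and 98.0%, with 6 false calls. Smaller changes were not simulated.

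The named genes are all members, and from each pathway list those called in OVX or sham ageing contrasts or else the 2 with the smallest p, taken as 1 from each tissue. The members and lists were chosen with earlier results of these data known. One marker gene of the rod list is not reported here and was left out of it. Animal numbers in the labels pair retina and posterior eye; deviations of the same animal correlated across genes with a median r of 0.06. Replicate libraries differed by more than sampling noise in every pair. Within a tissue the animals are separate, so p-values there measure spread between rats. The tissue contrasts treated the 2 libraries of a rat as independent, and only an alternative fit took the animal as a block. Alternatives were DESeq2 1.42.0, limma-voom (limma 3.58.1), other scalings and filters, marker covariates, the animal as block and each library left out.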

Additional observations from a re-analysis of the deposited data

Results flagged for a closer look

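In aged sham posterior eyes, animal 14 stood apart from the other 5 animals of its group for 2 members. Its B2m level was 636.8 CPM, with the next animal at 469.6 CPM. Its Nlrc5 level was 12.36 CPM, with the next animal at 6.275 CPM. The gap to the next animal was 0.693 of the group's range for B2m and 0.708 for Nlrc5, above Dixon's critical value of 0.625. Among the 72 groups checked, 2 were marked in this way, and chance marks about 1 in 20.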

How the results depend on the processing

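Across 4068 alternative values of 144 member fold changes, none lost a call or reversed beyond its error, and 228 changed sign within 1 SE of 0. Only the 9 fold changes between the tissues had a call to lose. The count of members called went from 0 to 1 in 2 of 452 alternatives, both in the added average of aged against young retinas. DESeq2 called 1 (Tap1), and the leave-one-out range was 0 to 1, the 1 being B2m without young sham animal 4. Without the filter, 10 members instead of 9 were called between the tissues, as Tap2 was then tested too. In paired fits with the replicate block (animal), 9 of 9 members differed between tissues and 0 in the OVX effect, which changed no call. DESeq2 called more genes in all: 261 instead of 114 in that retina ageing average, 62 instead of 3 in young OVX retinas, 51 instead of 8 in the averaged retina OVX contrast and 29 instead of 0 in the averaged posterior eye one. Without the filter 69 genes were called in the retina ageing average, and 67 to 163 with 1 library left out. With the rod level as a covariate 6 genes instead of 1 were called in young OVX posterior eyes. The causes were not tested. Low counts limit Nlrc5, Psmb8, Psmb9, Tap1 and Cd74 in the retina, and the levels of tissue marker lists varied between libraries of both tissues.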
